A study of Mus musculus with 2 samples.

Results

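Island shores are the stretches of DNA that flank CpG islands, and here they were taken as partly methylated 500-bp bins next to unmethylated CpG-dense bins. Bisulfite sequencing after target capture (SureSelectXT Mouse Methyl-Seq) gave CpG methylation in hippocampal DNA of C57BL/6 mice. There was 1 library labelled ATO, from offspring with developmental exposure to arsenic trioxide (ATO) at 5000 ppb in drinking water, and 1 control library, labelled untreated. Per the labels' protocols, mice drank ATO from before mating through lactation, and the offspring went on drinking it after weaning. Whether 1 animal or a pool stands behind each library, and the age and sex of the mice, are not stated in the labels. The hippocampus was used whole, so a level is an average over all its cell types, and a change in cell makeup and a change within cells cannot be told apart.

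CpG islands are CpG-dense stretches that are mostly kept free of methylation and often hold gene promoters. Methylation climbs in the DNA on either side, and these shores are known as places where methylation differs between tissues and cell types. Bisulfite does not separate 5-methylcytosine from 5-hydroxymethylcytosine, which is abundant in brain, so both counted as methylated.

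An island bin held at least 15 analysed cytosines with a mean level of both libraries under 10%. A cytosine was analysed where both libraries had at least 10 reads. A shore bin held 5 to 14 analysed cytosines, had a mean level of both libraries of 20 to 80% and started within 2000 bp of the start of an island bin. On chromosomes 1 to 19, 11230 bins met this rule, of 149544 bins with at least 5 analysed cytosines. They lay beside 7488 of the 15566 runs into which the 27895 island bins joined. Of these runs 4781 had a single shore bin, and the largest number beside a run was 7. By distance from the nearest island bin, 4246 shore bins stood at 500 bp, 3610 at 1000 bp, 2053 at 1500 bp and 1321 at 2000 bp. Within the same 2000 bp, 14863 further bins with 5 to 14 cytosines were below 20% and 2196 were above 80%, so shore bins were 39.7% of them. For comparison served the 43024 bins that met the same level and cytosine limits but lay farther than 2000 bp from any island bin, called distant bins below.

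Shore bins were selected on the mean level of both libraries and on position, so their levels are given as a description. The libraries held 147924810 C or T calls (ATO) and 135987272 (control), with median coverages of 45 (ATO) and 41 (control) reads over the 2271297 analysed autosomal cytosines. Shore bins had median coverages of 65.6 reads per cytosine in the ATO and 61.6 in the control library, and 98.7% of their cytosines were on the reverse strand. With 1 library a group, no difference below has a replicate check, and no test of the exposure, or of shore against distant bins, was possible. Differences are given in percentage points as ATO minus control, each SD is the spread over bins, and autosomes are given as a view of its spread along the genome, not between animals.

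On average the island bins themselves read alike in both libraries. They averaged 2.85% in the ATO and 2.85% in the control library, a difference of 0.0023 points (SD 1.37). None of them differed by 20 points, but the limit on the mean level of both libraries left no room for such a difference. That limit also bounds the SD, so neither value shows that single island bins were alike. The range of the mean difference over the 19 autosomes was -0.070 to 0.075 points.

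Away from the islands the level climbed steeply in both libraries. Over all bins with 5 to 14 cytosines, whatever their level, methylation averaged 15.4% in the ATO and 15.5% in the control library at 500 bp, and 41.1% in the ATO and 41.3% in the control library at 1000 bp. At 2000 bp the averages were 54.9% in the ATO and 56.2% in the control library, and at 10000 bp 60.9% in the ATO and 64.1% in the control library. The climbs lay close together near the islands and parted farther out. Without any limit on the level, the mean difference was -0.08 points at 500 bp (16229 bins), -0.17 at 1000 bp, -0.95 at 1500 bp and -1.23 at 2000 bp. It was -2.01 points at 3000 bp and -3.15 points at 10000 bp.

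**Figure D1:**
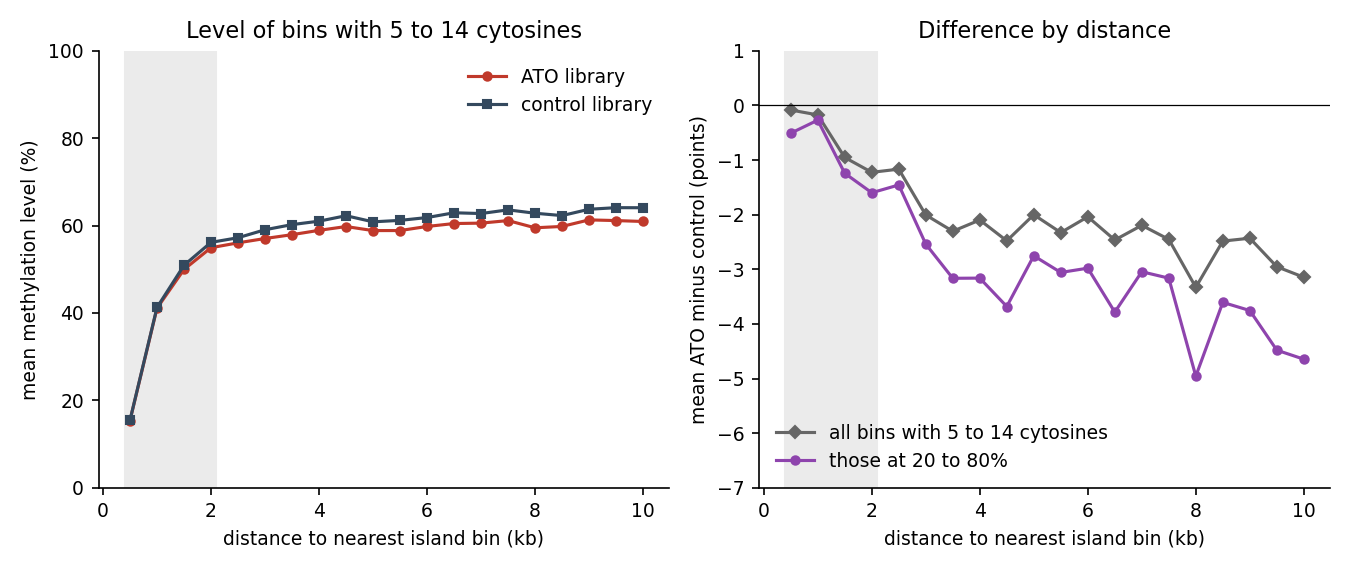
Left, mean methylation level (%) of all bins with 5 to 14 cytosines against distance to the nearest island bin (kb), for the ATO library (circles) and the control library (squares), with the shore distances shaded. Right, the mean of ATO minus control in points for all these bins (diamonds) and for those at 20 to 80% (circles), which is -0.51 points at 500 bp and -4.65 points at 10000 bp.

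Shore bins were slightly lower in the ATO library. They averaged 46.1% in the ATO and 46.8% in the control library, a mean difference of -0.69 points (SD 10.9, 11230 bins) and a median of -0.82. Distant bins averaged 53.3% in the ATO and 57.4% in the control library, a difference of -4.04 points (SD 13.0, 43024 bins). Of the shore bins 53.4% were lower in the ATO library, against 64.8% of the distant bins and 57.7% of all autosomal bins tested. On 15 of the 19 autosomes the shore mean was below 0. The lowest was -1.76 points, on chromosome 14, and the highest 0.53 points, on chromosome 3. The distant mean was negative on all 19, from -5.07 to -3.04 points, and on each of the 19 it lay below the shore mean, by 1.87 to 4.53 points.

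By distance, shore bins at 500 bp averaged 39.0% in the ATO and 39.5% in the control library, a difference of -0.51 points (SD 9.04). At 1000 bp the averages were 49.6% in the ATO and 49.9% in the control library, a difference of -0.27 points (SD 11.4). The bins at 1500 bp averaged 50.4% in the ATO and 51.7% in the control library and differed by -1.24 points (SD 12.3). Those at 2000 bp averaged 52.6% in the ATO and 54.2% in the control library and differed by -1.60 points (SD 12.6). Means were negative on 14 of 19 autosomes at 500 bp and on 18 of 19 at 2000 bp, and the 2000-bp mean lay below the 500-bp mean on 16. Farther out the means went on downwards, with -2.68 points at 2500 to 5000 bp, -3.72 at 5500 to 10000 bp, -4.003 from there to 50000 bp and -4.56 beyond 50000 bp. The order within the shore depended on which library set the level class. With the class taken from the control library alone, the 500-bp bins differed by -1.43 and the 2000-bp bins by -0.93 points. With the class from the ATO library alone they differed by 0.38 and -2.25 points. The mean of all shore bins was above that of distant bins in both cases, at -0.91 against -2.91 points and at -0.51 against -4.72 points.

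**Figure D2:**
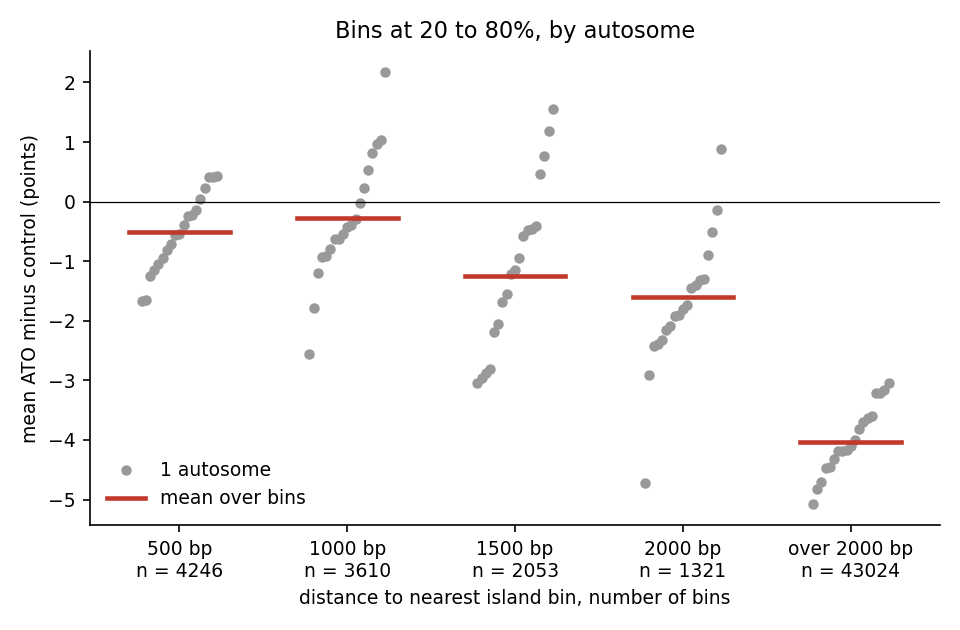
Mean of ATO minus control (points) of bins at 20 to 80%, at each distance from the nearest island bin and beyond 2000 bp. Grey points are the 19 autosomes, sorted by value, and red bars the mean over all bins of the class, -0.51 points at 500 bp and -4.04 points beyond 2000 bp.

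The same climb was seen at single cytosines, measured from the nearest analysed cytosine of an island bin. From 1 to 100 bp outside, 56802 cytosines averaged 5.84% in the ATO and 5.90% in the control library. From 501 to 600 bp the averages were 34.0% in the ATO and 34.7% in the control library, and from 1901 to 2000 bp 56.4% in the ATO and 57.9% in the control library. Partly methylated cytosines (20 to 80% by the mean of both libraries) differed by -1.12 points in the first 100 bp (3719 cytosines), -0.67 points from 901 to 1000 bp (5605) and -2.24 points from 1901 to 2000 bp (2449). The last was the lowest of the 20 steps up to 2000 bp, and the steps on either side of it stood at -1.39 and -1.11 points. The values were uneven farther out too, at -0.50 points from 2301 to 2400 bp. From 2901 to 3000 bp they differed by -3.40 points. Over the 100-bp steps up to 2000 bp, the SD over partly methylated cytosines was 16.3 to 19.6 points.

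Large losses were rarer in the shores than farther away, while large gains were about as frequent. Of shore bins 436 (3.88%) were lower in the ATO library by at least 20 points and 404 (3.6%) were higher by as much. Of distant bins 10.1% were lower and 3.99% higher by at least 20 points, and of all autosomal bins tested 3.46% and 1.54%. Within the shore large losses became more frequent at each step, and large gains up to 1500 bp. At 500 bp 1.86% were lower and 1.93% higher by 20 points or more. The shares were 5.89% and 5.07% at 1500 bp, and 6.89% and 4.84% at 2000 bp. Beyond 50000 bp the shares were 11.5% lower and 4.02% higher.

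Single bins were called where a two-sided Fisher's exact test on summed calls gave a Benjamini-Hochberg adjusted p under 0.05 and the difference was at least 20 points. Since neighbouring cytosines are often read on a single fragment, sums were scaled down beforehand by the maximum count of analysed cytosines that a 300-bp stretch of the bin held. These calls compare 2 libraries, not exposed with unexposed mice. In the shores 306 bins were called (2.72%), of which 127 were lower (1.13% of shore bins) and 179 higher (1.59%). Over all autosomal bins tested 1.83% were called, 1.18% lower and 0.647% higher. Over distant bins 5.17% were called, 3.51% lower and 1.67% higher. At these limits the share called higher in the shores was thus near that of distant bins, and the share called lower was below it. By distance, 15 bins were called lower and 34 higher at 500 bp, and 37 and 63 at 1000 bp. At 1500 bp 41 were called lower and 48 higher, and at 2000 bp 34 and 34. As a share of the shore bins at each step, calls in either direction were 1.15% at 500 bp and 2.77% at 1000 bp. This share went on rising, to 4.34% at 1500 bp and 5.15% at 2000 bp. Bins called higher had median levels of 67.3% in the ATO and 38.2% in the control library, and bins called lower had 39.8% in the ATO and 69.0% in the control library. A control level below 20% was held by 11 bins called higher, and an ATO level below it by 15 called lower. The limits on the mean level and on the difference bound these counts. Nearly all calls were lost when sums were also divided by a dispersion of 2.68, which left 2 lower and 1 higher in the shores. Of the 43024 distant bins, 9 were then called lower and 14 higher. The contrast between shore and distant calls was thus not kept at that setting. The dispersion is the mean of the values of the libraries (ATO 2.76, control 2.60), each estimated from CpGs read on both strands. Of the cytosines in shore bins 98.7% were on the reverse strand, so the estimate rests largely on other cytosines.

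The order of the shore bins by level depended on which library set the level class. With the mean of both libraries, shore bins at 20 to 40% averaged 29.3% in the ATO and 29.4% in the control library, a difference of -0.08 points (SD 9.21, 4786 bins). Those at 40 to 60% differed by -0.90 points (SD 12.9, 3428 bins), and those at 60 to 80% by -1.44 points (SD 10.9, 3016 bins), with the mean below 0 on 10, 16 and 19 of the 19 autosomes. With the class from the control library alone the order turned round, with -1.16 points at 20 to 40%, -0.92 at 40 to 60% and -0.051 at 60 to 80%. From the ATO library alone the values were 0.94, -0.90 and -2.84 points. In bins with at least 40 reads the lowest class was also positive, at 0.24 points. In distant bins the same classes differed by -3.32, -4.88 and -3.84 points. At a matched level the shore means did not fall evenly with distance. At 40 to 60% they were -0.77 points at 500 bp, -0.22 at 1000 bp, -1.59 at 1500 bp and -2.13 at 2000 bp, against -5.26 points beyond 10000 bp. At 60 to 80% they were -1.15, -0.72, -2.31 and -2.10 points over the same steps, against -3.95 points beyond 10000 bp. In both classes the bins at 1000 bp differed least. At 20 to 40% no order was seen inside the shore, with -0.25 points at 500 bp, 0.12 at 1000 bp, 0.30 at 1500 bp and -0.18 at 2000 bp, against -3.59 points beyond 10000 bp.

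Classes by the number of cytosines in the bin lay closer together. Shore bins with 5 to 7 cytosines differed by -0.54 points (SD 11.4, 6130 bins), those with 8 to 10 by -0.79 points (SD 10.6, 3362 bins) and those with 11 to 14 by -1.07 points (SD 9.64, 1738 bins). In distant bins the values were -4.14, -4.02 and -3.62 points, the other order. The shore order was not stable: with the level class from the ATO library alone it too ran the other way, with -0.58, -0.44 and -0.38 points. The richest bins at 500 bp differed by -0.99 points, against -0.29 points for the poorest, while at 2000 bp the values were -1.24 and -1.52 points. When level and cytosine number were crossed into 9 classes, the shore mean lay above the distant mean in each of the 9, by 1.77 to 4.44 points.

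**Figure D3:**
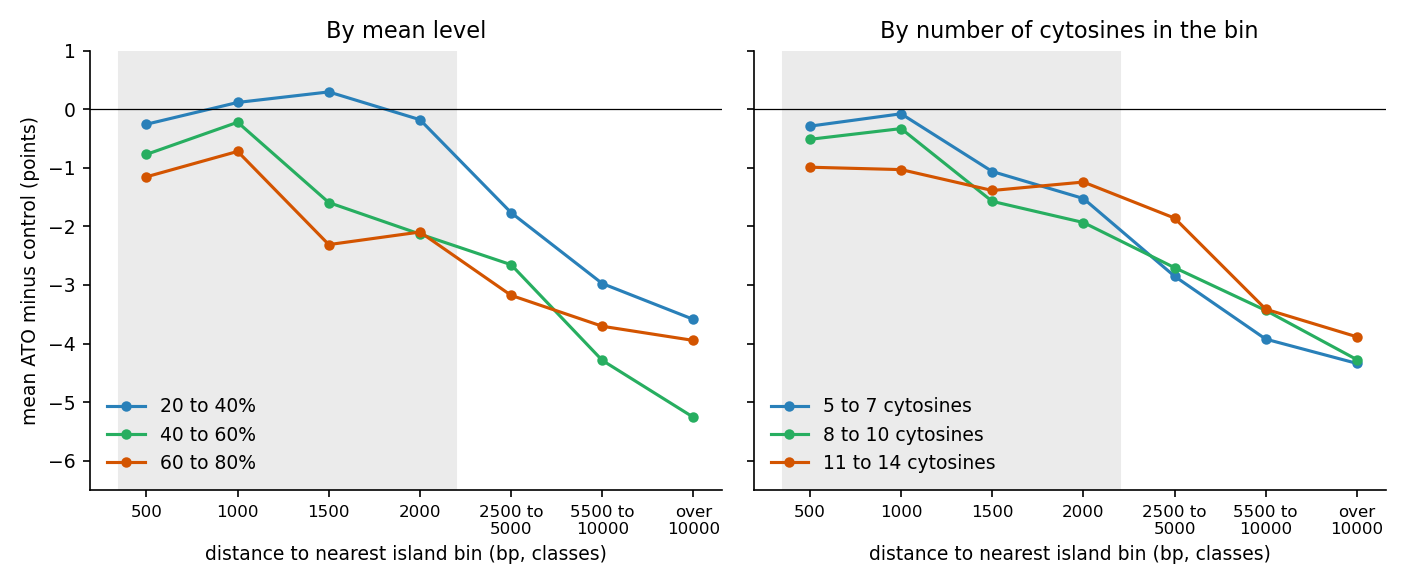
Mean of ATO minus control (points) of bins at 20 to 80%, in classes of distance to the nearest island bin, split by the mean level of the bin (left) and by its number of analysed cytosines (right), with the shore distances shaded. At 20 to 40% the shore means stay between -0.25 and 0.30 points, and every class lies at or below -3.59 points beyond 10000 bp.

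Mean differences in the shores showed no steady order by island size. A run of touching island bins was 1 bin long in 7294 cases, and the longest had 12 bins, or 6000 bp. Shore bins beside runs of 1 bin differed by -0.71 points (SD 10.999, 4815 bins), beside 2 bins by -0.68 (SD 10.6, 3947), beside 3 bins by -0.51 (SD 11.2, 1737), beside 4 bins by -1.16 (SD 11.5, 495) and beside 5 or more by -0.98 points (SD 10.7, 236). The class of 4 bins turned to 0.11 points when the bin grid was moved by 250 bp, and that of 5 or more to 0.61 points at a coverage minimum of 20 reads. Directly beside the runs of 5 or more bins, the 70 bins at 500 bp averaged 33.0% in the ATO and 35.7% in the control library, a difference of -2.78 points (SD 8.92), negative on 16 autosomes. At 1000 bp beside these longest runs, 84 bins differed by 0.59 points (SD 12.3). The 168 bins at 500 bp beside runs of 4 bins differed by 0.45 points (SD 9.63). The lowest class by step and size was that of 93 bins at 1500 bp beside runs of 4 bins, at -3.67 points (SD 12.3). The islands of all sizes read alike on average in both libraries, with mean differences of -0.029 points in runs of 1 bin to 0.091 points in runs of 5 or more.

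The residual methylation of the island, by contrast, moved with the difference in its shores. Where the run of island bins read 1 to 2%, its shore bins differed by -0.24 points (SD 10.4, 3150 bins), and at 2 to 3% by -0.33 points (SD 10.95, 4010 bins). Beside islands at 3 to 5% the difference was -1.03 points (SD 11.1, 2478 bins) and beside islands at 5 to 10% -2.13 points (SD 11.4, 1523 bins), negative on 9, 11, 15 and 18 autosomes in that order of classes. Shore levels were similar throughout, at 46.1% in the ATO and 46.4% in the control library beside the islands at 1 to 2%, and 46.1% in the ATO and 48.2% in the control library beside those at 5 to 10%. Median coverages of the shore bins were 67.7 (ATO) and 64.2 (control) reads in the 1 to 2% class, and 60 (ATO) and 54.9 (control) reads in the 5 to 10% class. The part of depth in this order was not tested.

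Depth moved with the difference too. Taking the lower of both libraries' reads per cytosine, shore bins with 10 to 20 reads differed by -2.53 points (281 bins), with 20 to 40 by -1.59 (2291), with 40 to 80 by -0.64 (5701) and with 80 to 160 by 0.18 points (2817). The 140 bins with 160 or more reads differed by -2.28 points. Distant bins in these classes differed by -4.97, -4.47, -4.14, -3.10 and -1.60 points, so the shore mean was the higher one in the first 4 classes and the lower one in the deepest. In bins with 40 to 80 reads, the shore means were -0.54 points at 500 bp, 0.08 at 1000 bp, -1.35 at 1500 bp and -1.74 at 2000 bp, against -4.33 points beyond 10000 bp. The part of depth in the differences was not tested.

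**Figure D4:**
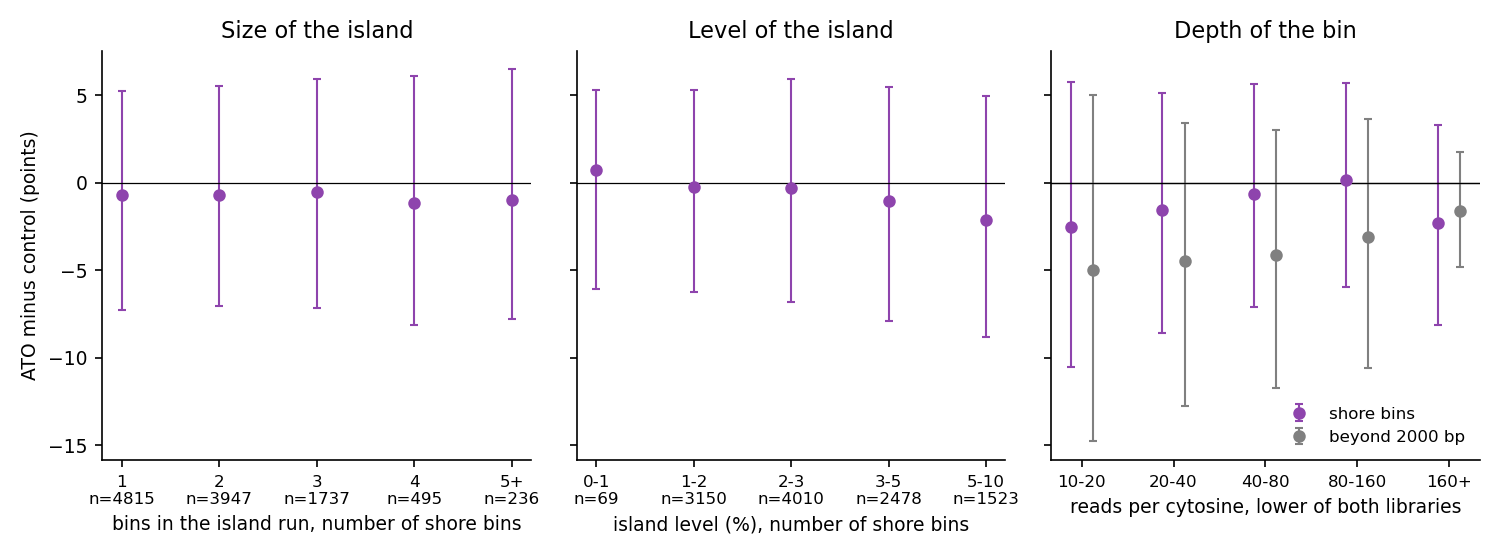
Mean of ATO minus control (points) of shore bins by the number of bins in the island run (left), the level of the island in % (middle) and the reads per cytosine of the bin, where distant bins are shown in grey (right). Bars run from the lower to the upper quartile of the bins, and means go from 0.75 points (69 bins) beside islands under 1% to -2.13 points beside islands at 5 to 10%.

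Shores on the lower-coordinate side of an island differed by -0.71 points (5606 bins) and those on the higher-coordinate side by -0.68 points (5624 bins). The 273 shore bins with an island bin within 2000 bp on both sides had a mean of the other sign. They averaged 42.3% in the ATO and 41.2% in the control library, a difference of 1.15 points (SD 10.8), negative on 7 of 19 autosomes, against -0.74 points in the other 10957. At 500 bp the 115 such bins differed by 1.88 points (SD 9.80), against -0.58 points in the 4131 with an island on 1 side. At 1500 bp the 42 such bins differed by -0.29 points (SD 10.9). Of the 273, 5 were called higher and 0 lower by Fisher's exact test; the 5 are 1.83%, near the shares called higher in all shore bins and in distant bins.

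Neighbouring shore bins tended to differ alike. In 1930 pairs of touching shore bins on the same side of an island, the differences correlated across pairs at a Pearson r of 0.59 and a Spearman rho of 0.55, and 68.2% had the same sign. These bins come from the same 2 libraries and can share fragments. In 307 islands with a shore bin at 500 bp on either side, r was 0.18 and rho 0.15, and 52.1% of pairs had the same sign. Between a shore bin at 500 bp and the island bin it touched, r was 0.21 and rho 0.17 over 4246 pairs.

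Called shore bins were spread over many islands. The 306 calls lay beside 285 islands, and 19 islands had more than 1. Of the 7488 islands with shore bins, 4781 had only 1 and could not hold a second call. In each of the 19 all calls went in the same direction. Most of the 19 had their calls in touching bins, which can share fragments and tended to differ alike, so these directions are not independent. The largest group, named here after its values were seen, had 4 calls and lay around the island bin at chromosome 15, 77950001 to 77950500 (build mm9). On its lower side the bin at 77948501 to 77949000 had 51.3% in the ATO and 25.3% in the control library. On its higher side the bins starting at 77951001, 77951501 and 77952001 had 71.5, 81.9 and 60% in the ATO library, and 39.1, 50.6 and 29.3% in the control library. All 4 were thus higher in the ATO library by 26.0 to 32.4 points, with 56.3 to 140 reads per cytosine and adjusted p of 4.6e-05 to 0.021 by Fisher's exact test.

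The largest gain among called shore bins with at least 20 reads per cytosine in both libraries was at chromosome 2, 32824501 to 32825000, 2000 bp from a 2-bin island. It read 84.3% (exact 95% interval 72.3 to 92.0) in the ATO and 32.7% (22.005 to 44.3) in the control library (Fisher's exact test, adjusted p = 1.7e-06). All 8 of its cytosines were higher in the ATO library. They lay between 59.1 and 91.8% there and between 24.2 and 44.0% in the control library, so the ranges did not overlap. This bin and the other large gains and losses named below were picked for their differences, and cytosines of a bin can share fragments. Agreement among the cytosines of such a bin is thus no separate support. In the chromosome 2 bin, the cytosine at position 32824888 had 89.4% of 66 reads methylated in the ATO and 24.7% of 97 reads in the control library. Its first analysed cytosine, at 32824728, had 59.1% of 44 reads methylated in the ATO and 25% of 48 reads in the control library.

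A pair of touching bins on chromosome 5 came next, on the lower side of a 3-bin island at 38214501 to 38216000. The nearer one, 38213501 to 38214000, read 68.4% (54.4 to 79.4) in the ATO and 17.0% (7.77 to 28.8) in the control library over 6 cytosines, with an adjusted p of 1.6e-05 by Fisher's exact test. The farther one, 38213001 to 38213500, read 63.7% (50.4 to 76.6) in the ATO and 12.9% (3.403 to 28.2) in the control library over 5 cytosines, at 44.6 (ATO) and 26.4 (control) reads per cytosine, with an adjusted p of 0.00045 by the same Fisher's exact test. All 11 cytosines of the pair were higher in the ATO library, and those of each bin did not overlap between the libraries. On chromosome 11, 54115501 to 54116000 read 85.5% (67.2 to 94.7) in the ATO and 36.7% (22.4 to 52.2) in the control library over 8 cytosines, at 32 (ATO) and 45 (control) reads. Its ATO levels stayed between 76.9 and 100% across the bin, while its control levels ranged from 16.7 to 63.8%.

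The largest loss was at chromosome 8, 26632001 to 26632500, 2000 bp from a 3-bin island. It read 19.2% (9.92 to 30.03) in the ATO and 69.7% (55.1 to 82.7) in the control library over 6 cytosines, with an adjusted p of 3.1e-05 by Fisher's exact test. Its coverages were 65.2 (ATO) and 47.3 (control) reads per cytosine. Its 6 cytosines lay between 10.5 and 32.3% in the ATO and between 61.9 and 80.8% in the control library. The neighbouring shore bin, 26631501 to 26632000, was also called lower, with 23.3% in the ATO and 60.6% in the control library. On chromosome 6, 135116501 to 135117000 read 37.4% (22.7 to 54.2) in the ATO and 84.4% (70.3 to 92.7) in the control library over 5 cytosines. This loss was uneven: the cytosine at 135116767 had 63.6% in the ATO and 81.0% in the control library, and that at 135116966 had 12.5% in the ATO and 80.4% in the control library. On chromosome 12, 106268501 to 106269000 read 47.8% (28.7 to 68.1) in the ATO and 92.2% (77.5 to 98.2) in the control library, at 27.2 (ATO) and 35.8 (control) reads. On chromosome 11, 70463001 to 70463500 read 35.2% (21.7 to 49.6) in the ATO and 77.7% (63.8 to 87.7) in the control library over 7 cytosines, all of them lower. None of these 8 bins was called with sums also divided by the dispersion between strands, and the chromosome 12 bin was not called at an adjusted p under 0.01 (Fisher's exact test, adjusted p = 0.013).

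The 3 islands with the most shore bins show how a single shore looks. Beside the 2-bin island at chromosome 3, 96361501 to 96362500, which read 2.40% in the ATO and 2.65% in the control library, 5 of 7 shore bins were lower in the ATO library. On its higher side the bins from 500 to 2000 bp had 37.6, 54.1, 65.7 and 66.4% in the ATO library, and 47.2, 65.9, 69.6 and 73.9% in the control library. All 4 were lower in the ATO library and none was called. On its lower side only the bin at 2000 bp was called, with 34.4% in the ATO and 65.7% in the control library (Fisher's exact test, adjusted p = 0.00083).

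Beside the island at chromosome 12, 109214501 to 109215000, the direction changed along the shore. At 500 bp on the lower side the bin had 26.5% in the ATO and 15.8% in the control library, and at 1000 bp 42.4% in the ATO and 47.6% in the control library. The bin at 1500 bp had 61.9% in the ATO and 81.9% in the control library. At 2000 bp, the only call, the levels were 54.8% in the ATO and 76.7% in the control library (Fisher's exact test, adjusted p = 0.0046). Beside the island at chromosome 14, 55051001 to 55051500, all 6 shore bins were lower in the ATO library. Its bins from 500 to 2000 bp on the higher side had 38.0, 35.8, 31.3 and 60.9% in the ATO library, and 58.3, 59.5, 63.3 and 76.3% in the control library. The bin at 1500 bp was the only one called (Fisher's exact test, adjusted p = 0.032). These 3 islands were picked for their number of measured shore bins, and their mean shore differences of -8.38, -6.36 and -18.3 points were far from the overall -0.69.

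**Figure D5:**
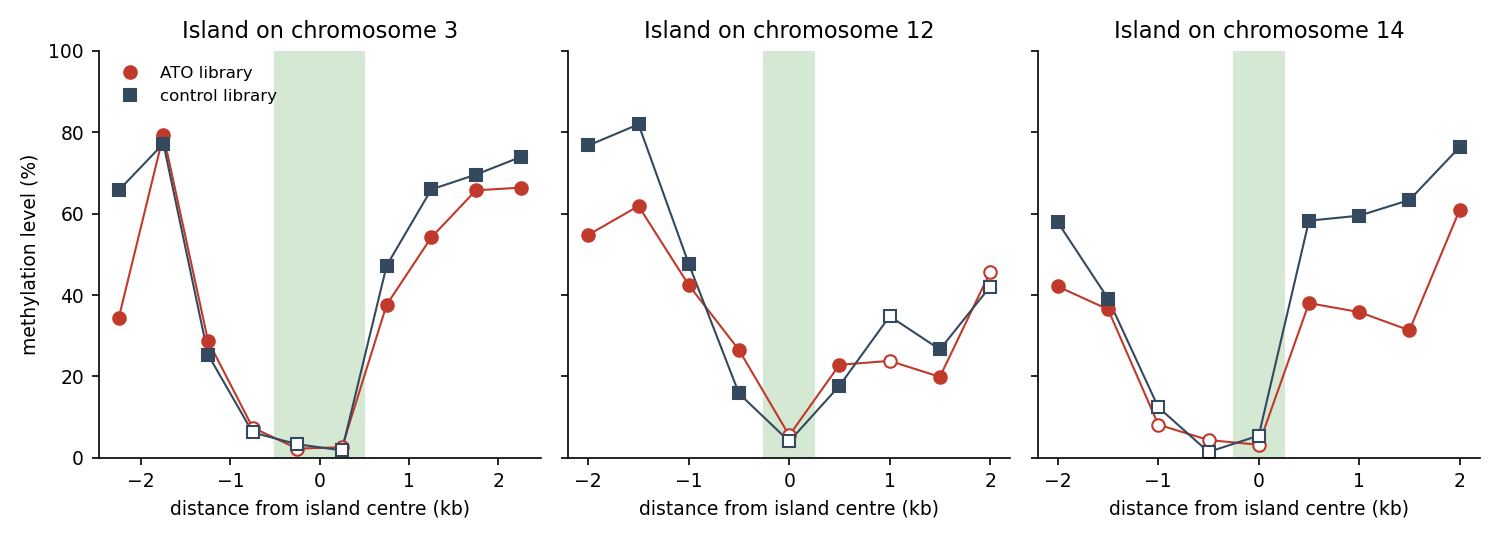
Methylation level (%) of each bin within 2000 bp of the 3 islands with the most shore bins, against the distance of its centre from the centre of the island (kb), in the ATO library (circles) and the control library (squares). Filled symbols are shore bins, open ones island bins or bins outside the level or cytosine limits, and the island is shaded; beside the chromosome 14 island all 6 shore bins are lower in the ATO library.

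The SD of the differences over shore bins was 10.9 points, against 3.38 points from counting if every call were independent and 8.31 points with sums divided for shared fragments. At low depth the spread was within the error of divided sums, with an SD of 12.9 against 14.6 points in shore bins with 10 to 20 reads. At 500 bp the SD was 9.04 against 8.24 points with divided sums, and at 2000 bp 12.6 against 8.56 points. At the level limits, the upper cytosine limit and the distance limit of the rule, bins just inside were set beside bins just outside. Bins at 20 to 22% differed by 0.44 points and those at 18 to 20% by 0.29 points. At 78 to 80% the difference was -1.30 and at 80 to 82% -1.34 points. Bins with 14 cytosines differed by -1.89 and those with 15 by -0.89 points, and bins at 2000 bp by -1.60 and at 2500 bp by -1.46 points.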

How the data were processed

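Per the submitters' processing notes, the tables come from reads handled with bcl2fastq, Bowtie2 and Bismark 0.19.0 on build mm9. No source used here states trimming, duplicate removal or the program behind the tables. Per the file headers, each deposited table gives for a CpG cytosine, by strand, its coverage, a raw count of reads that called C or T there, with the percent of C and of T. Coverage multiplied by percent C gave the methylated calls, and in both libraries 100% of the products were whole within the 0.005 points of rounding.

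From these, cytosines with at least 10 reads in both libraries were summed in 500-bp bins with Python 3.11.15, pandas 2.3.3 and scipy 1.17.1. A bin's level is its methylated calls over its coverage. Islands that touch form a run, and a shore bin belongs to the nearest run, or to the longer of 2 at the same distance. Bins were tested with Fisher's exact test, adjusted over all 149544 autosomal bins with at least 5 analysed cytosines. The caller was checked on simulated data with calls drawn independently for each cytosine. Shared fragments and dispersion between strands were not part of that check. Exact (Clopper-Pearson) 95% intervals use the divided sums. Intervals cover counting error only, not differences between animals or libraries, and would be too narrow if duplicates remain. Named bins are the 4 largest gains and 4 largest losses among called shore bins with at least 20 reads per cytosine, and the 3 islands with the most shore bins; chromosome 18 was left out of naming. Members, classes and tests were chosen with earlier results of these data known. No genome sequence or annotation of mm9 was used here, so neither sequences nor genes are given.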

Additional observations from a re-analysis of the deposited data

How the results depend on the processing

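No paired analysis was possible because each group has 1 library, and for the same reason none could be left out. Shore bins stayed below 0 on average, and above distant bins by 2.002 to 4.22 points, in all settings tried. A single bin rests on fewer fragments than a mean over many bins. The mean of shore bins was -0.49 points with island bins under 5%, -0.87 in bins of 30 to 70%, -0.91 with the level class from the control and -0.51 from the ATO library alone, and -0.40 with at least 40 reads. At 500 bp these last 4 settings gave -0.79, -1.43, 0.38 and -0.22 points; choosing bins by 1 library's level uses the same reads that enter the difference. At 2000 bp the mean was -0.98 with the grid moved by 250 bp, and -0.93 and -2.25 with the class from the control or the ATO library. Distant bins differed by -3.80 at a coverage minimum of 20, -3.90 with each cytosine weighted alike, -3.93 with islands of at least 20 cytosines, -4.55 at 30 to 70%, -2.91 and -4.72 with the class from the control or the ATO library, and -3.83 with at least 40 reads. The shore calls were 69 lower and 108 higher at an adjusted p under 0.01, 436 and 404 with all calls counted, and 2 and 1 with sums also divided by the dispersion between strands. Among classes of shore bins 5 of 161 values changed sign: 0.034 points at 1000 bp and 0.24 at 20 to 40% with at least 40 reads, 0.94 at 20 to 40% with the class from the ATO library, 0.11 beside 4-bin islands with the grid moved, and 0.61 beside islands of 5 or more bins at a coverage minimum of 20. A further 24 class values moved, among them -0.70 points at 1000 bp with the grid moved, -0.64 at 1500 bp and -1.52 beside 3-bin islands at a coverage minimum of 20, and -2.08 beside 4-bin islands with runs joined. Of 55 values of the named bins 46 were still called, 9 were not and 0 reversed. Settings with at least 40 reads, with islands on 1 side only, with runs joined over a missing bin and with the dispersion between strands were chosen after seeing the data. The causes of these changes between settings were not tested.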
